A study of Mus musculus with 6 samples.

Results

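The genes described here encode the kinases at the head of the DNA damage and replication stress checkpoints, together with the proteins that load and switch on ATR. They were listed by name, as Atr, Atrip, Atm, Chek1, Chek2, Topbp1, Rad9a, Hus1, Rad1 and Rad17. All 10 were found among the 24062 genes of the count table, and all 10 passed the filter on low counts that left 16904 genes for testing. RNA was sequenced from whole retinae at postnatal day 21 (P21), 3 from Chx10-Cre Rb1 lox/lox p107 -/- Hells lox/lox mice (Rb1/p107/Hells TKO) and 3 from Chx10-Cre Rb1 lox/lox p107 -/- mice (Rb1/p107 DKO), all labelled C57BL/6 (C57BL/6N in the study's methods). Both groups therefore lacked the Rb1 product in recombined cells and p107 in every cell, and they differed in the floxed Hells alleles, whose product is a chromatin remodeling helicase. The Chx10 promoter drives Cre in a mosaic of retinal progenitors, so every retina also held cells that kept Rb1 and Hells. The labels do not say which retinae came from the same litter, and the p-values measure the spread between these 6 retinae.

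ATR, held by its partner ATRIP, is recruited to RPA-coated single-stranded DNA at stalled replication forks. RAD17 with the small RFC subunits loads the ring-shaped RAD9A-HUS1-RAD1 clamp beside it, the clamp brings in TOPBP1, and TOPBP1 stimulates ATR, which phosphorylates CHK1 (Chek1). ATM is recruited to double-strand breaks by the MRE11-RAD50-NBN complex and phosphorylates CHK2 (Chek2), and both arms end on CDC25 phosphatases, cyclin-dependent kinases and p53. CHK1 and TOPBP1 also serve unperturbed S phase, and many genes of this arm are transcribed in dividing cells under E2F factors, which the Rb family holds in check.

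Chek1, Chek2 and Topbp1 were lower in TKO than in DKO retinae, by 3.41-fold, 2.32-fold and 2.76-fold. Atrip was 1.50-fold higher. Atr, Atm, Rad17 and the clamp genes Rad9a, Hus1 and Rad1 did not pass an adjusted p of at most 0.05 with edgeR's quasi-likelihood test. Of the 10 genes 3 were therefore lower, where 9.2% of all genes tested were, and 1 was higher, where 7.35% of all genes tested were. With the stricter criteria of the study's methods (adjusted p of at most 0.05, a log2 fold change of at least 1 in size and a mean of at least 10 normalized counts) the same 3 were lower, against 4.38% of all genes tested, and 0 were higher, against 1.97%. Without a fold criterion, 3 of the 10 were lower and 1 higher at an unadjusted p of at most 0.05. Of the 16904 genes tested, 3004 were lower and 2588 higher at that p. DESeq2 also called 3 of the 10 lower and 1 higher, against 1769 lower and 1490 higher of all genes tested. In a bulk sample, fewer cells of a type and less RNA per cell cannot be told apart.

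**Figure D1:**
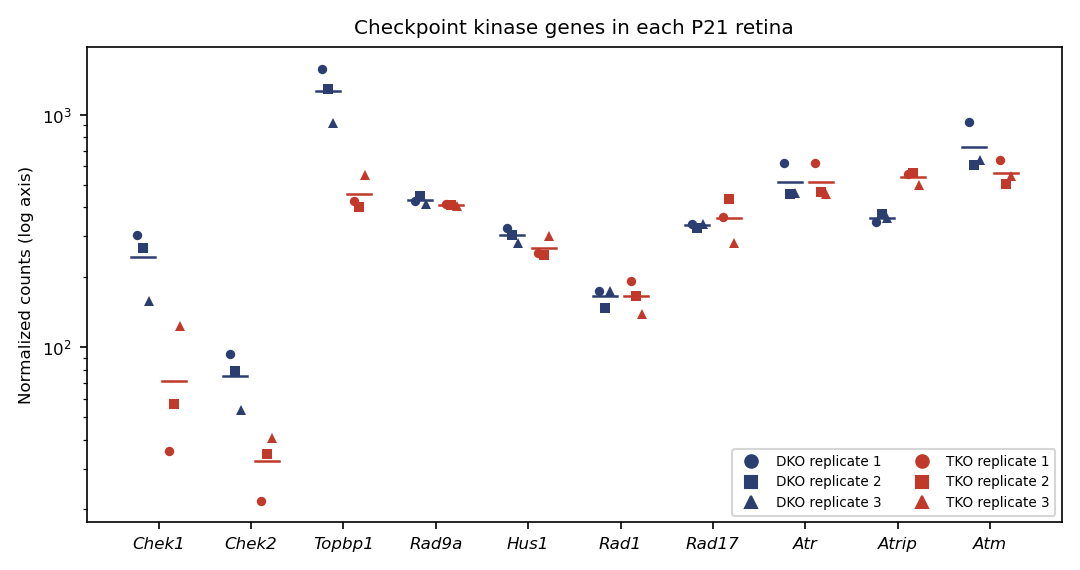
Normalized counts (log axis) of the 10 genes in each retina, with DKO in blue, TKO in red, a symbol for each replicate and a bar at the group mean (n = 3 each). Chek1, Chek2 and Topbp1 lie lower in every TKO retina than in any DKO retina, Atrip lies higher, and the groups overlap for Atr, Atm, Hus1, Rad1 and Rad17.

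Promoter stretches that carry letters of the E2F motif are shown for the members that fell, and for Atm as the other kinase with such letters. The windows, from 250 bases before to 50 bases after a gene's start, are from RefSeq on GRCm38.p6, and 9 of the 10 genes matched, Rad9a being the one that did not. The motif searched was TTTCCCGC, TTTCGCGC, TTTGCCGC or TTTGGCGC on both strands. It was found in the windows of Chek2 and Topbp1. The Chek2 stretch is chr5:110839733-110839978 and the Topbp1 stretch is chr9:103305077-103305214, both on the plus strand and both ending at the base before the gene's annotated start, with the motif in capitals.

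Chek2: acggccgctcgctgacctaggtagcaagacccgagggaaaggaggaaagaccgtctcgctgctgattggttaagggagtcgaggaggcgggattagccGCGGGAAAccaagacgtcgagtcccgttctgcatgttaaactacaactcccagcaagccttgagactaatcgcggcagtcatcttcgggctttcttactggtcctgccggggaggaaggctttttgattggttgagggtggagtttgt

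Topbp1: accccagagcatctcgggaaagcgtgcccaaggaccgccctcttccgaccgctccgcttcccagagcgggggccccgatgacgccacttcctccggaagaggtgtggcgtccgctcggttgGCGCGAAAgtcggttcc

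The match lay 152 bases before the RefSeq start in Chek2 and 129 bases before it in Topbp1. The 8-letter motif thus stood in 2 of 9 genes with a window (22.2%) and in 7 of 32 such genes (21.9%) among the other checkpoint pathway genes. It stood in 519 of 12429 genes tested with a window (4.18%) and in 744 of all 32851 windows (2.26%), where a gene can have several. A 7-letter form that lacks the first T of each, searched after the first result was seen, was also in Chek1 and Atm. That made 4 of 9 genes (44.4%) against 13 of 32 (40.6%), 17.9% and 9.57% in the same order. In Topbp1 a 7-letter match on the other strand overlaps the printed one. The Chek1 stretch is chr9:36726609-36726638 and the Atm stretch is chr9:53536638-53536667, both on the minus strand, with the 7 letters in capitals.

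Chek1: cagcatgacgcaagcaggttttgGCGGGAA

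Atm: tagagccggaaGCGGGAAggcgtgcgtaca

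The match lay 43 bases past the RefSeq start in Chek1, at the very end of the window, and 15 bases past it in Atm. The annotated genes begin further upstream, at 36727065 for Chek1 and 53536740 for Atm. Both printed stretches therefore lie inside the annotated gene, unlike those of Chek2 and Topbp1. The next base is A in the 2 of 8 annotated Chek1 transcripts that hold the window's end. There the 8-letter motif GCGGGAAA is complete but runs past the window, so the counts above leave it out. Among the other pathway genes, the 8-letter motif was in the windows of Clspn, Rfc3, Cdc25a, Cdk1 and Cdk2, all lower in TKO retinae. Their log2 fold changes were -2.11, -0.83, -1.54, -2.68 and -1.75 (edgeR's quasi-likelihood test, adjusted p = 0.00957, 0.0132, 0.018, 0.0078 and 0.0151). It was also in the windows of Tti1 and Mdc1, with log2 fold changes of -0.02 and -0.15 (same test, adjusted p = 0.875 and 0.365). Genes that hold the motif thus did not all pass the test. The letters are a description of the reference sequence, and binding was not measured in these libraries.

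The libraries held between 10343907 and 14203098 read pairs counted on genes, and edgeR's TMM factors ranged from 0.913 to 1.07. The normalized counts given below are raw counts scaled to a common library size with these factors. Hells, the targeted gene, had 60.8, 68.4 and 83.4 normalized counts in TKO retinae 1, 2 and 3 and 678, 523 and 395 in DKO retinae 1, 2 and 3, so each library lay on the side its label gives. The log2 fold change of Hells was -2.91, and those of the dividing cell markers ran from -3.21 to -1.27. Low Hells counts alone therefore cannot verify the Hells deletion. Rod markers that define retina were abundant in all libraries (Gnat1, Sag, Pde6b, Nrl, Nr2e3 and Cnga1, summed 182471 to 360457 in TKO and 61742 to 116882 in DKO retinae), and 6 of 6 were higher in TKO. Dividing cell markers were lower for 8 of 8 genes, with sums of 2140 to 4629 normalized counts in TKO and 8452 to 15822 in DKO retinae and no marker at 0. Microglia markers were lower for 5 of 7 genes (sums of 1329 to 2235 and 2753 to 4131), and lens markers were higher for 4 of 7 (517 to 3421 and 105 to 109, with the highest sum in TKO replicate 2). Of the other lists, 2 of 5 cone, 2 of 6 bipolar, 2 of 5 Muller glia, 1 of 4 horizontal, 1 of 5 pigment epithelium and 2 of 3 tested blood and vessel markers were higher. In these lists 0 markers were lower with edgeR. At an unadjusted p of at most 0.05, 5 of 5 cone markers were higher, 1 horizontal marker was lower and 1 higher, and 1 Muller glia marker was lower and 2 higher. The median log2 fold change was 1.14 for the cone list and -0.39 for the horizontal list. Of the 5 amacrine and 5 ganglion cell markers 0 passed with edgeR, where an unadjusted p of at most 0.05 was reached by 1 lower and 1 higher amacrine marker and by 0 ganglion markers, and DESeq2 called the same numbers. Hbb-bs and Hba-a1 were at 0 counts. The part of these markers in the results below was not tested.

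Atr, the apical kinase of the replication stress arm, spans chromosome 9 from 95857597 to 95951781 (GRCm38, plus strand). It had 618, 465 and 457 normalized counts in TKO retinae 1, 2 and 3 and 619, 455 and 459 in DKO retinae 1, 2 and 3. Replicate 1 was the highest in each group and the groups overlapped. The log2 fold change was 0.01 (SE 0.163, 95% interval -0.37 to 0.38, edgeR's quasi-likelihood test, adjusted p = 0.983).

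Atrip, which tethers ATR to RPA-coated DNA, is on the minus strand of chromosome 9 from 109057933 to 109074124. It had 556, 559 and 499 normalized counts in TKO retinae and 344, 374 and 359 in DKO retinae. Every TKO retina was above every DKO retina, as for 18.0% of all genes tested, and Atrip was the only one of the 10 with this order. Atrip rose by 0.58 on the log2 scale (SE 0.0934, 95% interval 0.37 to 0.80, edgeR's quasi-likelihood test, adjusted p = 0.00821). Atrip exons share 1147 bp, 16.0% of their length, with exons of Trex1, a DNA exonuclease gene on the same strand. How reads in the shared part were counted is not known. Trex1, examined after the overlap was seen, had 242, 233 and 228 normalized counts in TKO and 178, 211 and 222 in DKO retinae. Its TKO values were also all above its DKO values, with a fitted difference of 0.20 on the log2 scale (edgeR's quasi-likelihood test, adjusted p = 0.304).

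The log2 ratio of Atr to Atrip was 0.15, -0.26 and -0.13 in TKO retinae 1, 2 and 3 and 0.85, 0.28 and 0.35 in DKO retinae 1, 2 and 3. All TKO ratios lay below all DKO ratios. The difference was -0.58 (exact two-sided permutation test, p = 0.1, adjusted p = 0.133 over 4 ratios), and 0.1 is the smallest p that 3 against 3 allows.

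Topbp1, the activator of ATR and a scaffold for the start of replication, is on chromosome 9 from 103305215 to 103350428. It had 423, 399 and 551 normalized counts in TKO retinae and 1578, 1290 and 924 in DKO retinae. The highest TKO value was below the lowest DKO value, and replicate 3 of each group lay nearest the other group. Topbp1 fell by 1.47 on the log2 scale (SE 0.202, 95% interval -1.93 to -1.0, edgeR's quasi-likelihood test, adjusted p = 0.00691). Topbp1 had the smallest adjusted p of the 10 genes, and with 1 retina left out its log2 fold change ranged from -1.65 to -1.28 and passed the test each time.

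The clamp and its loader form the next group. Rad9a, on chromosome 19 from 4195196 to 4201662, had 412, 407 and 405 normalized counts in TKO and 425, 447 and 414 in DKO retinae. Its TKO values were all below its DKO values, as were those of Chek1, Chek2 and Topbp1, an order shown by 4 of the 10 genes and by 20.6% of all genes tested. The difference for Rad9a was small, with a log2 fold change of -0.07 (95% interval -0.27 to 0.13, edgeR's quasi-likelihood test, adjusted p = 0.608). Its exons share 225 bp, 9.53% of their length, with Ppp1ca on the other strand.

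Hus1, on chromosome 11 from 8993137 to 9011191, had 253, 249 and 301 normalized counts in TKO and 326, 304 and 281 in DKO retinae. The groups overlapped through replicate 3 of each. Its log2 fold change was -0.18 (95% interval -0.46 to 0.10, edgeR's quasi-likelihood test, adjusted p = 0.332). Rad1, the clamp's other subunit, is on chromosome 15 from 10486018 to 10499063, with 192, 166 and 139 normalized counts in TKO and 175, 147 and 174 in DKO retinae. Its groups overlapped, and its log2 fold change had a 95% interval from -0.37 to 0.37 (edgeR's quasi-likelihood test, adjusted p = 0.997).

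Rad17, which loads the clamp, lies on chromosome 13 from 100617164 to 100651051 and had 361, 432 and 281 normalized counts in TKO and 340, 324 and 339 in DKO retinae. The TKO values spread on both sides of the DKO values, with SDs of 75.3 and 9.01 (n = 3 each). On the log2 scale the difference was 0.10 (95% interval -0.25 to 0.45, edgeR's quasi-likelihood test, adjusted p = 0.688). RAD17 works in a complex with the 4 small RFC subunits, which it shares with the replicative clamp loader, and all 4 of these were lower in TKO retinae, with a median log2 fold change of -0.82 against -0.01 over all genes tested. Rfc5, with 173, 158 and 169 normalized counts in TKO and 376, 341 and 255 in DKO retinae, had a log2 fold change of -0.96 (edgeR's quasi-likelihood test, adjusted p = 0.00942). The values for Rfc4 and Rfc2 were -0.81 and -0.51 (adjusted p = 0.0127 and 0.0137, same test). With edgeR, Rfc2, Rfc3 and Rfc4 each lost the call without TKO replicate 2 (adjusted p = 0.0664, 0.063 and 0.0574), DKO replicate 1 (0.0536, 0.0536 and 0.0546) or DKO replicate 2 (0.0614, 0.056 and 0.0622).

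Chek1 encodes CHK1, the kinase downstream of ATR that restrains CDC25 phosphatases and protects forks in S phase. It is on the minus strand of chromosome 9 from 36708482 to 36727065. Its normalized counts were 35.5, 56.8 and 123 in TKO retinae 1, 2 and 3 and 305, 268 and 157 in DKO retinae 1, 2 and 3, from 31 to 100 and from 182 to 324 raw counts. TKO replicate 3 and DKO replicate 3 lay closest to each other, and the groups did not overlap. The log2 fold change was -1.77 (SE 0.421, 95% interval -2.73 to -0.81, edgeR's quasi-likelihood test, adjusted p = 0.0256), the most negative of the 10 genes. The call was lost without TKO replicate 1 (adjusted p = 0.0626), TKO replicate 2 (0.102), DKO replicate 1 (0.0932) or DKO replicate 2 (0.0907), with log2 fold changes of -1.45, -1.63, -1.57 and -1.69 in that order. It held without the third retina of either group, where edgeR gave log2 fold changes of -2.38 without TKO replicate 3 and -2.01 without DKO replicate 3. edgeR's robust option put the adjusted p at 0.0504.

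Chek2 encodes CHK2, the kinase downstream of ATM at double-strand breaks, and lies on chromosome 5 from 110839979 to 110874145. It had 21.8, 34.7 and 40.5 normalized counts in TKO and 93.2, 78.8 and 53.5 in DKO retinae. The groups did not overlap, and replicate 3 again lay closest to the other group. Chek2 fell by 1.21 on the log2 scale (SE 0.308, 95% interval -1.92 to -0.51, edgeR's quasi-likelihood test, adjusted p = 0.0324). Its TKO libraries held 19 to 33 raw counts of Chek2, the fewest of the 10 genes. The call was lost without TKO replicate 1 (adjusted p = 0.0897), TKO replicate 2 (0.0942), DKO replicate 1 (0.111) or DKO replicate 2 (0.108), again from edgeR.

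The log2 ratio of Chek1 to Chek2 was 0.71, 0.71 and 1.60 in TKO retinae and 1.71, 1.77 and 1.55 in DKO retinae. TKO replicate 3 fell within the DKO range and the other two TKO retinae lay below it. The difference of -0.67 between the genotypes had p = 0.2 in the exact two-sided permutation test (adjusted p = 0.2).

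Atm, the apical kinase at double-strand breaks, is on the minus strand of chromosome 9 from 53439149 to 53536740. It had 638, 503 and 542 normalized counts in TKO and 926, 609 and 636 in DKO retinae. The groups overlapped, since TKO replicate 1 was above DKO replicates 2 and 3. Atm had a log2 fold change of -0.37 (SE 0.170, 95% interval -0.76 to 0.02, edgeR's quasi-likelihood test, adjusted p = 0.172). The log2 ratio of Atr to Atm was -0.04, -0.11 and -0.25 in TKO and -0.58, -0.42 and -0.47 in DKO retinae, so Atr stood higher relative to Atm in every TKO retina. The difference of 0.35 had p = 0.1 in the exact two-sided permutation test (adjusted p = 0.133).

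**Figure D2:**
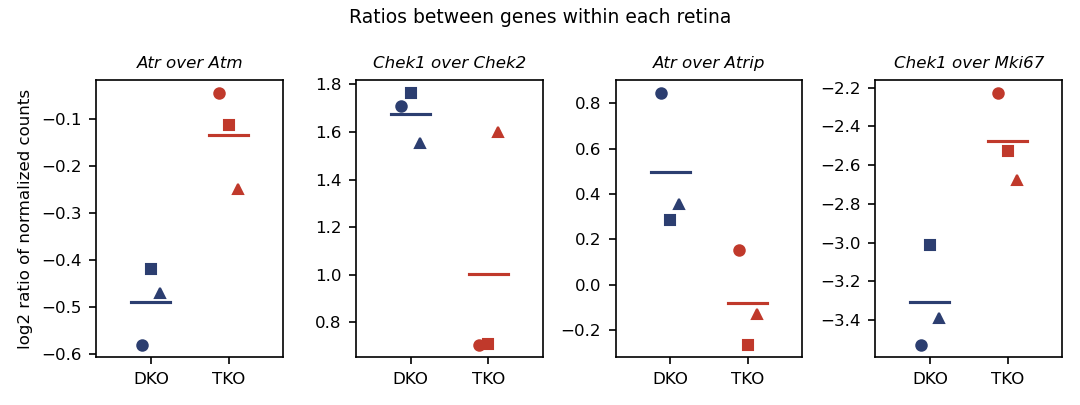
Log2 ratios of normalized counts between gene pairs in each retina, with DKO in blue, TKO in red, circle, square and triangle for replicates 1, 2 and 3 and a bar at the group mean (n = 3 each). The groups do not overlap for Atr over Atm, Atr over Atrip and Chek1 over Mki67, and TKO replicate 3 lies within the DKO range for Chek1 over Chek2.

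Levels of different genes were compared as normalized counts per kilobase of the transcript with the longest coding sequence. In DKO retinae Topbp1 was the highest (242 ± 62.8 per kilobase, SD, n = 3), followed by Rad9a (206 ± 8.24), Atrip (140 ± 5.71), Rad17 (118 ± 3.17) and Rad1 (109 ± 10.5). Below them stood Atm (74.0 ± 17.9), Hus1 (65.4 ± 4.76), Chek1 (64.1 ± 20.3), Atr (63.1 ± 11.5) and Chek2 (33.0 ± 8.82). The ranges of neighbours overlapped for Topbp1 and Rad9a, for Rad17 and Rad1, and along the run from Atm through Hus1 and Chek1 to Atr.

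In TKO retinae Atrip (209 ± 13 per kilobase) and Rad9a (196 ± 1.64) led with overlapping ranges. Rad17 (126 ± 26.5), Rad1 (109 ± 17.5) and Topbp1 (87.6 ± 15.6) came next, each range overlapping that of its neighbour. Atr (63.4 ± 11.2), Hus1 (57.7 ± 6.14) and Atm (57.3 ± 7.07) overlapped as well. Chek1 (18.9 ± 12) and Chek2 (14.2 ± 4.21) were below every other gene and overlapped each other. Topbp1 thus stood at rank 1 of 10 in DKO and rank 5 in TKO retinae, and Chek1 at ranks 8 and 9. With all annotated exons merged as the length, a choice added after seeing the data, Rad9a led in both groups and Atr, with the longest merged exons, moved to rank 10 in DKO and rank 8 in TKO retinae, so the order between genes depends on the length used.

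Chek1, Chek2 and Topbp1 moved with the dividing cell markers over the 6 retinae. Mki67, a marker of cycling cells, had 166, 327 and 784 normalized counts in TKO retinae 1, 2 and 3 and 3514, 2157 and 1644 in DKO retinae 1, 2 and 3. It was lower in every TKO retina, with replicate 3 of each group nearest the other, and its log2 fold change was -2.52 (edgeR's quasi-likelihood test, adjusted p = 0.0152). That call was lost without TKO replicate 2 (adjusted p = 0.0719), DKO replicate 1 (0.0569) or DKO replicate 2 (0.0524) and with robust dispersion (0.0698), all from edgeR. Top2a, a topoisomerase gene of cycling cells, had a log2 fold change of -3.21 (adjusted p = 0.0078, same test). The log2 ratio of Chek1 to Mki67 was -2.23, -2.53 and -2.68 in TKO and -3.53, -3.01 and -3.39 in DKO retinae, so there was more Chek1 per Mki67 in every TKO retina. That difference of 0.83 had p = 0.1 in the exact two-sided permutation test (adjusted p = 0.133). Of the dividing cell markers, only Mki67 was set against Chek1 in this way. Top2a, Ccnb1 (log2 fold change -2.89) and Birc5 (-2.89) also fell more than Chek1 (-1.77). Mcm5 (-1.74), Mcm2 (-1.59), Ccna2 (-1.32) and Pcna (-1.27) fell about as much or less, so the direction of such a ratio depends on the marker. Whether the fall in Chek1, Chek2 and Topbp1 goes beyond that in the number of dividing cells was not tested.

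**Figure D3:**
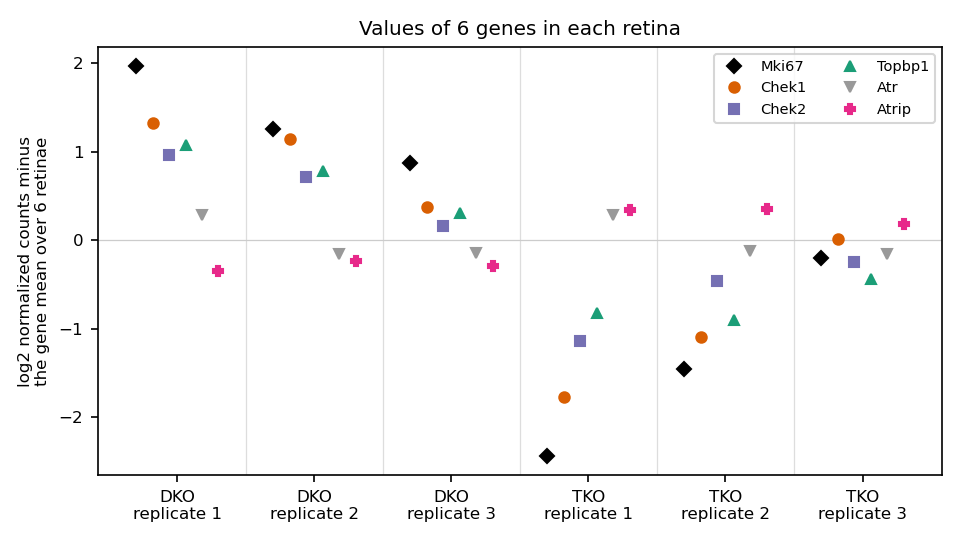
Log2 normalized counts of 6 genes in each retina, each minus its own mean over the 6 retinae. Mki67, Chek1, Chek2 and Topbp1 are high in DKO retinae and low in TKO retinae, with the smallest distance between the groups in replicate 3, while Atrip runs the other way and Atr lies near 0.

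The genes most like Chek1 were sought among 12887 genes with a mean normalized count of at least 50, by the root-mean-square distance between profiles of log2 normalized counts over the 6 libraries, each centred on its own mean. The nearest were Rad51ap1 (distance 0.0661), E2f7 (0.101), an atypical E2F repressor, Dsn1 (0.121), a kinetochore protein gene, Cdk2 (0.138), the S phase kinase, and Iqgap3 (0.142). Rad51ap1 had 34.4, 49.5 and 114 normalized counts in TKO and 293, 250 and 159 in DKO retinae, against 35.5, 56.8 and 123 and 305, 268 and 157 for Chek1. All 5 lay lower in every TKO retina than in any DKO retina, an order largely set by choosing them for likeness to Chek1. For Atm the nearest were Ccdc88a (0.0635), Cd97 (0.0666), Megf10 (0.0703), Gm4944 (0.0836) and Sppl2a (0.0869), and none of these 5 passed the adjusted p (0.0975 to 0.492, edgeR's quasi-likelihood test). Like Atm, Ccdc88a was highest in DKO replicate 1, with 1720 normalized counts. These traits of the genes nearest Atm likewise follow largely from how they were chosen.

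The other genes of the pathway were taken from hand-written lists of 43 genes, of which 42 were tested, Hus1b having 1 count in all. Of these 42, 19 were lower in TKO retinae (9.2% of all genes tested were), 0 were higher, and the median log2 fold change was -0.40. At an unadjusted p of at most 0.05, 23 were lower and 2 higher, against 3004 lower and 2588 higher of the 16904 genes tested. DESeq2 called 20 lower and 0 higher, against 1769 and 1490 of all genes tested. These counts over all genes also stand beside those of the separate lists below. With 1 retina left out, edgeR called from 8 to 21 of the 42 genes lower, with 8 without TKO replicate 2 or without DKO replicate 2 and 9 without DKO replicate 1.

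**Figure D4:**
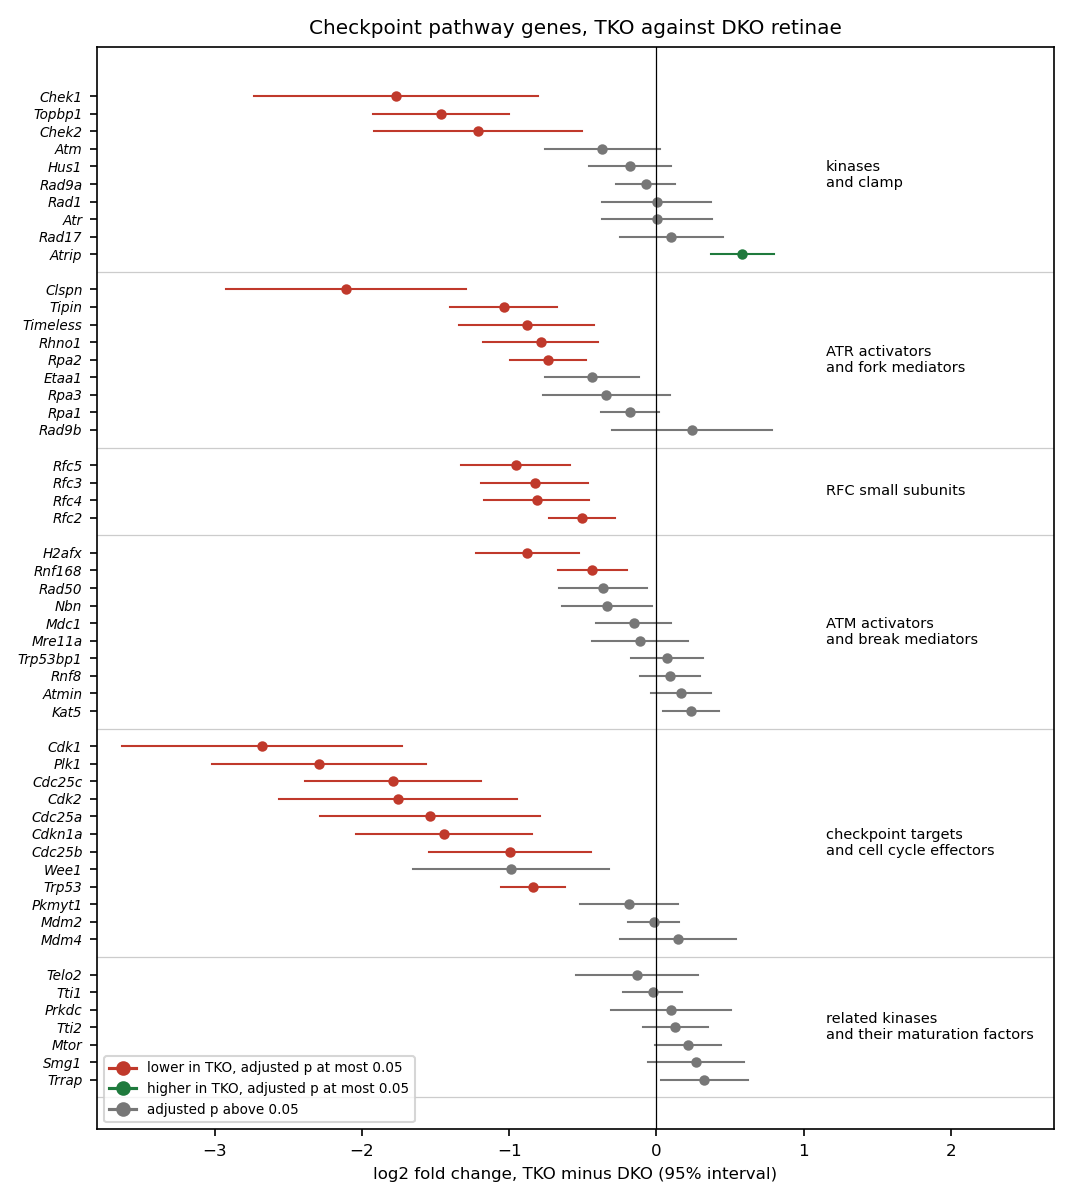
Log2 fold change (TKO minus DKO) with its 95% interval for the 10 genes and the 42 tested genes of the other lists, coloured by the adjusted p from edgeR. Lower genes (red) gather among the fork mediators, RFC subunits and cell cycle effectors, and 0 of the 7 related kinases and maturation factors passed.

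Among ATR activators and fork mediators 5 of 9 tested genes were lower and 0 higher with edgeR (6 lower and 0 higher at an unadjusted p of at most 0.05, 5 and 0 with DESeq2), with a median log2 fold change of -0.73. Tipin, which pairs with Timeless to protect forks, had 269, 255 and 378 normalized counts in TKO and 681, 608 and 562 in DKO retinae. It fell by 1.04 on the log2 scale (edgeR's quasi-likelihood test, adjusted p = 0.00766). Rpa2, a subunit of the RPA complex that coats single-stranded DNA, fell by 0.73 (adjusted p = 0.00766, same test), whereas Rpa1, the large RPA subunit and the most abundant of this list, had a log2 fold change of -0.18 (adjusted p = 0.191, same test). Clspn, which encodes claspin, the adaptor through which ATR reaches CHK1, was looked at after its values were seen. It had 74.5, 132 and 228 normalized counts in TKO and 786, 615 and 465 in DKO retinae and a log2 fold change of -2.11 (adjusted p = 0.00957, same test), a call lost with edgeR without TKO replicate 2 (0.0505).

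Among ATM activators and break mediators 2 of 10 genes were lower and 0 higher with edgeR (4 and 1 at an unadjusted p of at most 0.05, 2 and 0 with DESeq2), and the median log2 fold change was -0.13. H2afx, the histone variant that ATM phosphorylates around breaks, had 149, 209 and 206 normalized counts in TKO and 344, 375 and 319 in DKO retinae. Its log2 fold change was -0.88 (edgeR's quasi-likelihood test, adjusted p = 0.0103). Rnf168, a ubiquitin ligase at breaks, fell by 0.44 (adjusted p = 0.0241, same test), and Trp53bp1, which encodes the repair factor 53BP1, had a log2 fold change of 0.07 (adjusted p = 0.671, same test). The call for Rnf168 was lost without TKO replicate 1 (adjusted p = 0.0835), TKO replicate 2 (0.0852), DKO replicate 1 (0.0753) or DKO replicate 2 (0.1), and that for H2afx without DKO replicate 2 (0.0538), all from edgeR.

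Among checkpoint targets and cell cycle effectors 8 of 12 genes were lower and 0 higher with edgeR (9 and 0 at an unadjusted p of at most 0.05, 9 and 0 with DESeq2), with a median log2 fold change of -1.22. Plk1, a mitotic kinase that ends the checkpoint, had 35.5, 48.4 and 87.1 normalized counts in TKO and 316, 312 and 206 in DKO retinae. It fell by 2.29 on the log2 scale (edgeR's quasi-likelihood test, adjusted p = 0.00691). Trp53, which encodes p53, the target of ATM and CHK2, had 279, 279 and 299 normalized counts in TKO and 484, 523 and 527 in DKO retinae. It fell by 0.84 (SE 0.0941, adjusted p = 0.0048, same test), and the groups lay far apart relative to the spread within them. Mdm2, the p53 ubiquitin ligase and itself a p53 target, had 913, 968 and 896 in TKO and 915, 978 and 923 in DKO retinae. Mdm2 values differed by -0.02 on the log2 scale (adjusted p = 0.878, same test). Cdkn1a, which encodes the cyclin-dependent kinase inhibitor p21 and is also a p53 target, was looked at after its values were seen. It had 157, 262 and 358 normalized counts in TKO and 786, 749 and 579 in DKO retinae, every TKO retina being below every DKO retina. Cdkn1a fell by 1.45 on the log2 scale (adjusted p = 0.0112, same test), a call lost with edgeR without TKO replicate 2 (0.0531), DKO replicate 1 (0.0504) or DKO replicate 2 (0.051).

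Among the related kinases and the factors that help them mature, 0 of 7 genes passed with edgeR or with DESeq2 in either direction, and 0 lower and 1 higher did at an unadjusted p of at most 0.05. Their median log2 fold change was 0.13. Trrap, the member of the family without kinase activity, had a log2 fold change of 0.32 (edgeR's quasi-likelihood test, adjusted p = 0.12). Mtor, the growth kinase of the same family, had 0.21 (adjusted p = 0.167, same test) and Smg1, its member in nonsense-mediated decay, had 0.27 (adjusted p = 0.222, same test).

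By position, 5 of the 10 genes (Atr, Atrip, Atm, Chek1 and Topbp1) lie on chromosome 9. The share of all genes tested that lie there was not counted, so this is a description only. These 5 hold the gene that was higher, 2 of the 3 that were lower and the 2 apical kinases that did not pass. Exons of 4 of the 10 genes overlap those of another annotated gene, namely Atr with 3 noncoding genes, Atrip with Trex1, Rad9a with Ppp1ca, and Rad17 with Ak6 over 73 bp, and none of Chek1, Chek2 and Topbp1 is among them.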

How the data were processed

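RNA-seq counts of 6 P21 retinae, 3 TKO and 3 DKO, were analysed, with groups and replicate numbers taken from the sample labels. Libraries were made with a stranded mRNA kit. The deposited values are raw counts per gene symbol, 1 column per retina. By the study's methods the authors aligned read pairs to GRCm38 with STAR, allowing reads with a few alignments, and counted genes with HTSeq, whereas the submitters' processing notes name TopHat2, featureCounts and DESeq2. The strand setting of the counting is not given in the sources used here, so overlapping genes are less certain.

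Genes with a count sum under 10 were removed. The main test was edgeR 4.0.16 in R 4.3.3 (TMM scaling, quasi-likelihood F test, no covariate), with Benjamini-Hochberg adjustment over 16904 genes and a threshold of 0.05. DESeq2 1.42.0, the study's tool, was an alternative. The mean normalized count in the study's criteria used DESeq2 size factors. Standard errors were derived from the log2 fold change and its F statistic, and intervals cover 95%. The procedure was tested on simulated data. Retinae of the same genotype were not one library deposited more than once, as their chi-square statistics per degree of freedom were 8.97 to 26.6, and library totals of 10343907 to 14203098 limit the precision of genes with few counts.

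Ratios were compared by exact two-sided permutation tests. Coordinates and transcript lengths are from GENCODE M21 (GRCm38) and promoter windows from RefSeq (GRCm38.p6). The 10 genes and all lists were chosen with earlier results of these data known. Named genes were the 10, Hells, Mki67, Top2a, the 2 genes of each pathway list with the smallest adjusted p and the one with the largest mean count, and the 5 nearest genes in profile to Chek1 and Atm. Clspn, Cdkn1a, Rfc3, Tti1, Mdc1, Trex1, Cdc25a, Cdk1, the motif in Cdk2, the 7-letter motif, the base past the Chek1 window and merged exon lengths were added after seeing the data. So were the single log2 fold changes of Pcna, Mcm2, Mcm5, Ccna2, Ccnb1 and Birc5. Alternatives were other scalings, filters, dispersion estimates and tools, the replicate number as a block, and each retina left out in turn. Tumor RNA-seq and chromatin data were not analysed here. A rod marker outside the list of 6 used is not reported here.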

Additional observations from a re-analysis of the deposited data

How the results depend on the processing

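Of the 10 genes, Topbp1 and Atrip passed an adjusted p of at most 0.05 in 13 of 14 alternative settings, Chek2 in 9 and Chek1 in 8, and each kept its direction in all 14. With 1 retina left out, from 1 to 3 of the 10 genes were lower, also by the study's criteria, from 8 to 21 pathway genes were lower, and from 404 to 1973 of all genes were lower and from 214 to 1617 higher. Scaling by total counts alone moved the median over all genes from -0.01 to -0.17 on the log2 scale and gave 2610 lower and 778 higher genes in place of 1556 and 1243. Rpa1 passed under that scaling only (adjusted p = 0.0394, edgeR). The difference in log2 ratio ranged from 0.31 to 0.41 for Atr over Atm, from -0.97 to -0.52 for Chek1 over Chek2, from -0.69 to -0.40 for Atr over Atrip and from 0.71 to 0.98 for Chek1 over Mki67 when 1 retina was left out. The 7-letter motif was in 4 windows in place of 2.

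Retinae with the same number deviated from their means with correlations of 0.0517, -0.0451 and -0.163, against -0.146 to 0.165 for unlike numbers. These values showed no pairing by number, but with 3 retinae per group they cannot exclude one. With the replicate number as a block, 0 of the 10 genes were lower and 0 higher (0 by the study's criteria), 1 pathway gene was lower, and 82 of all genes were lower and 24 higher, all with edgeR. Both Topbp1 and Atrip then had an adjusted p of 0.0566, Chek1 had 0.0981 and Chek2 had 0.107. The block leaves fewer residual degrees of freedom.

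Genes near 0 changed sign in some settings, all without passing the test. The log2 fold change of Atr was -0.027 with upper quartile scaling and -0.16 with total counts only, and with 1 retina left out it ranged from -0.15 to 0.17. For Rad1 it was -0.032 and -0.16 with these scalings, from -0.12 to 0.12 with 1 retina left out, and -0.0013 without a filter, -0.0016 with filterByExpr and -0.0056 with the block. For Rad17 it was -0.063 with total counts only and from -0.057 to 0.25 with 1 retina left out. For Trp53bp1 it was -0.085 with total counts only, and for Mdm2 it ranged from -0.053 to 0.011 with 1 retina left out. No cause of these changes was tested. Chek2 and Chek1 rest on the fewest counts of the 10 genes in TKO retinae, which limits how far their calls carry.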
